A study of Mus musculus with 9 samples.

Results

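The genes described here are 46 genes of mitosis, given as a list of gene symbols. They cover the cyclin and kinase engine, the mitotic kinases, the chromosomal passenger complex, the spindle checkpoint, ubiquitin-dependent entry and exit, the kinetochore, the spindle motors, cytokinesis and the structure of mitotic chromosomes. A probe set annotated to the gene alone was found for 44 of the 46, among 12393 genes named in this way on the array. Ccnb1 and Cdca8 had none and were not analysed here. Where a gene had several such probe sets, the one with the highest mean over the arrays stood for it.

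In a dividing cell, cyclin-dependent kinase 1 bound to cyclin B drives entry into mitosis. Polo-like and Aurora kinases then build the spindle and correct the attachment of chromosomes to it, and the spindle checkpoint holds back the anaphase-promoting complex until every kinetochore is attached. Cdc20 activates that complex, which marks securin and the cyclins for destruction, and motors, bundlers and contractile proteins then divide the cell. Many of these transcripts are made in G2 and M phase and are low in resting cells. In the resting phase of the hair cycle, telogen, the hair germ is the small epithelial cluster between the bulge, where the slow-cycling stem cells sit, and the dermal papilla, the mesenchymal cluster that signals to both.

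The study profiled female CD1 mice that carried Lef1RFP, a red reporter, and K14H2BGFP, a green histone fusion under the keratin 14 promoter. The mice were weaned at day 21, kept as virgins and sampled at 43, 56 or 69 days of age, which the labels name as early, middle or late telogen. Cells of back skin were sorted into bulge (RFP-, GFP+, CD34+, P-cadherin low), hair germ (RFP-, GFP+, CD34-, P-cadherin high) and dermal papilla (RFP+, GFP-, CD45-, CD117-, integrin alpha 7-, and CD34- per the sample titles). Each population had 1 array per day, 9 in all, so the 3 days served as its replicates. Both reporters were present in all groups, and there was no treatment. The labels do not say how many mice gave a sample, or whether the same mice gave all 3 populations on one day. The p values therefore measure the spread between these arrays that is left after population and day are fitted. Changes with age that differ between populations are part of that spread.

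The unit throughout is log2(signal + 16), where signal is the deposited MAS5 intensity. A difference of 1 on this scale is 2-fold, and it understates the change of dim genes because 16 was added. Median signals ran from 40.1 to 56.5 between arrays, so a value near 6 is the middle of an array. The GAPDH 3′ to 5′ ratio, which rises as RNA or its copies get shorter, was 3.96 to 5.09 in bulge. On days 43, 56 and 69 hair germ had 8.34, 2.97 and 7.90, and dermal papilla 6.62, 4.13 and 3.77. All 9 keratinocyte markers lay above the array median on every bulge and hair germ array, and all 10 dermal papilla markers on every dermal papilla array. Of 6 genes of the hair germ and lower follicle, 2 lay above it on all hair germ arrays and 2, Cdh3 and Lef1, on none, and 1, Tnfrsf19, was called higher in hair germ than in bulge. Cd34, used in the sort, lay above it on all bulge arrays and on no hair germ array, whereas Cdh3, the gene of P-cadherin of the same sort, lay above it on none of the 9.

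The proximal promoters of mitosis genes are known for a pair of elements, the CHR (cell cycle genes homology region), bound by the DREAM and MuvB complexes, and the CCAAT box, bound by NF-Y. Promoter windows were taken from RefSeq (GRCm38.p6), from 250 bases before to 50 after the start. Such windows were found for 39 of the 46 members, 41 windows in all. TTTGAA or TTCGAA, on either strand, lay in 30 of the 41 (73.2%), against 14.6% of 12566 windows of the genes tested here and 19.2% of all 32851 in the table. CCAAT, on either strand, lay in 31 (75.6%), against 37.1% and 37.4%. Both lay in 27 windows (65.9%), against 5.76% and 7.52%. A CCAAT match and a CHR match may share an end base, and matches that did so were kept. In the 150 bases before the start alone, TTTGAA or TTCGAA lay in 13 of the 41 windows (31.7%), against 6.77% for the genes tested. CCAAT lay there in 31 (75.6%), against 26.3%. The 130 bases before the start are shown for 6 members whose windows hold both and for 2, Melk and Tacc3, whose windows hold neither. Unlike most members, all 6 have a TTTGAA or TTCGAA match in those bases. The members shown were chosen from the roles described below, including Mki67, the member with the largest difference. Capitals mark both motifs, read on either strand. Each reads 5′ to 3′ along the gene. The positions are chr10:69352913-69353042 (minus strand), chr4:118437344-118437473 (minus), chr2:164769799-164769928 (plus), chr11:99024190-99024319 (minus), chr7:135716380-135716509 (minus), chr19:37376252-37376381 (plus), chr4:44300787-44300916 (plus) and chr5:33657998-33658127 (plus).
Cdk1: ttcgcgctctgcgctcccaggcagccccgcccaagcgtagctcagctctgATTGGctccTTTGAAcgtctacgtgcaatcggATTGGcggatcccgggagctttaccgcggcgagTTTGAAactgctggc
Cdc20: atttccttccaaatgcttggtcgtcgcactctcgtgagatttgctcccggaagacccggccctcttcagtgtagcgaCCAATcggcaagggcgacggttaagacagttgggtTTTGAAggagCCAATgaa
Ube2c: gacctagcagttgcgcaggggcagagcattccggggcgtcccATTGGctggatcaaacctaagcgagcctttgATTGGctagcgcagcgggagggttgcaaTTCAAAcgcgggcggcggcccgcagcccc
Top2a: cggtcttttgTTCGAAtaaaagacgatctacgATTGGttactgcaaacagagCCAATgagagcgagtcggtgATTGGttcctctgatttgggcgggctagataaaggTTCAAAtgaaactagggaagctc
Mki67: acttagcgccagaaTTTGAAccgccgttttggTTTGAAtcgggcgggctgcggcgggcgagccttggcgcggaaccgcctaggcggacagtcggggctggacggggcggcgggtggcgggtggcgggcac
Kif11: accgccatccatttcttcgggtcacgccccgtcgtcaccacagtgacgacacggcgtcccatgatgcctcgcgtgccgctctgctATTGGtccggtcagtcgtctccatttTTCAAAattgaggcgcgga
Melk: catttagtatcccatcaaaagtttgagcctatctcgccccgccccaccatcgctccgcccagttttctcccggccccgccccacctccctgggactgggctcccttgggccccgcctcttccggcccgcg
Tacc3: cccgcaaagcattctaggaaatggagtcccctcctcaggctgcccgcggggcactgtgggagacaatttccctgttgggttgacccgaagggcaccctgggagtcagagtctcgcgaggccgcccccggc
For Mki67 the CCAAT matches lie upstream of the stretch shown. A match describes the letters and is not a bound site. The median hair germ minus bulge difference was 2.47 over the 24 measured members with both motifs and 2.23 over the 7 with neither, ranges 1.67 to 4.11 and 1.77 to 2.98.

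Every measured mitosis gene read higher in hair germ than in bulge and dermal papilla on each day. On all 3 hair germ arrays all 44 read above all 3 bulge arrays, and all 44 above all 3 dermal papilla arrays. Groups failed to overlap in this direction for 20.7% of all genes against bulge and for 22.7% against dermal papilla. In limma (population and day as terms, all genes in one fit), 43 of 44 members were called higher in hair germ than in bulge at an adjusted p below 0.05, and none lower. The same call was made for 7.38% of all 12393 genes, and 4.04% were called lower. The median member difference was 2.43, against 0.13 for all genes, and 42 members differed at least 2-fold. In bulk samples like these, fewer cells of a type and less RNA per cell cannot be told apart.

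**Figure D1:**
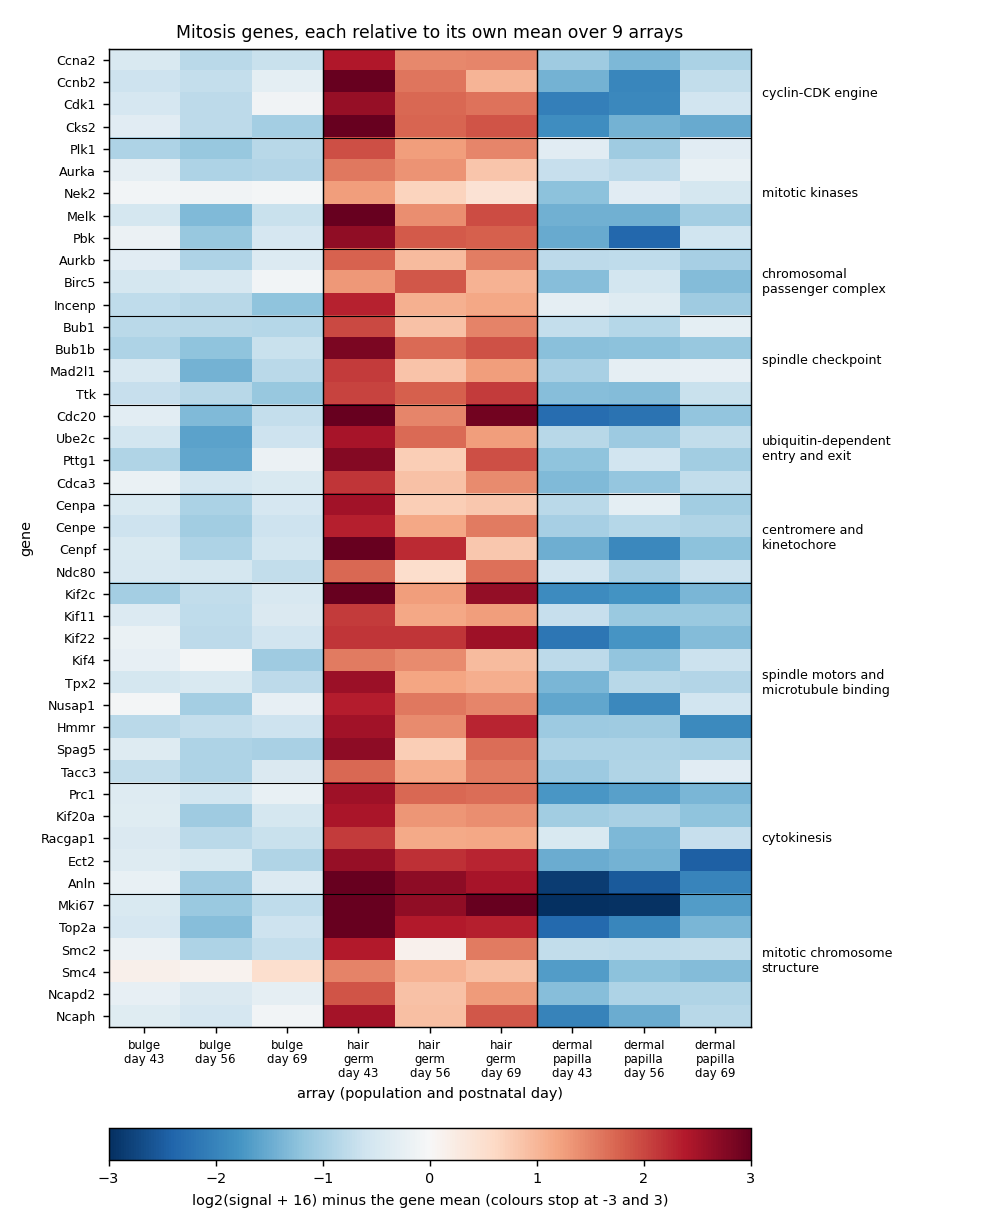
Heat map of the 44 measured mitosis genes (rows, grouped by role) on the 9 arrays (columns), as log2(signal + 16) minus the gene's own mean over the 9 arrays. The 3 hair germ columns lie above 0 in every row, palest for Smc2 on day 56, and the day 43 column is the darkest of them in most rows (the highest of the 3 days in 41 of 44).

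On days 43, 56 and 69 the members had a median of 8.61, 7.23 and 7.50 in hair germ. It was 5.56, 5.36 and 5.61 in bulge and 4.77, 4.74 and 5.17 in dermal papilla. Of the 44 members, 44, 40 and 43 lay above the array median in hair germ, 20, 14 and 16 in bulge and 6, 7 and 8 in dermal papilla. In bulge, 13 members lay above it on all 3 arrays, among them Mki67, Top2a, Anln, Prc1 and Smc4, and 23 on none. In dermal papilla 6 did so on all 3 (Cks2, Incenp, Mad2l1, Pttg1, Smc2 and Smc4), and 35 on none. These counts rest on the brightest probe set of each gene. The other probe sets of Prc1 (5.43, 4.69 and 5.39) and Top2a (4.15, 4.17 and 4.10) lay below the median on every bulge array. No further probe set of Cks2, Incenp or Pttg1 lay above it on all dermal papilla arrays, whereas a further one of Smc4 did (7.22, 7.46 and 7.55).

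**Figure D2:**
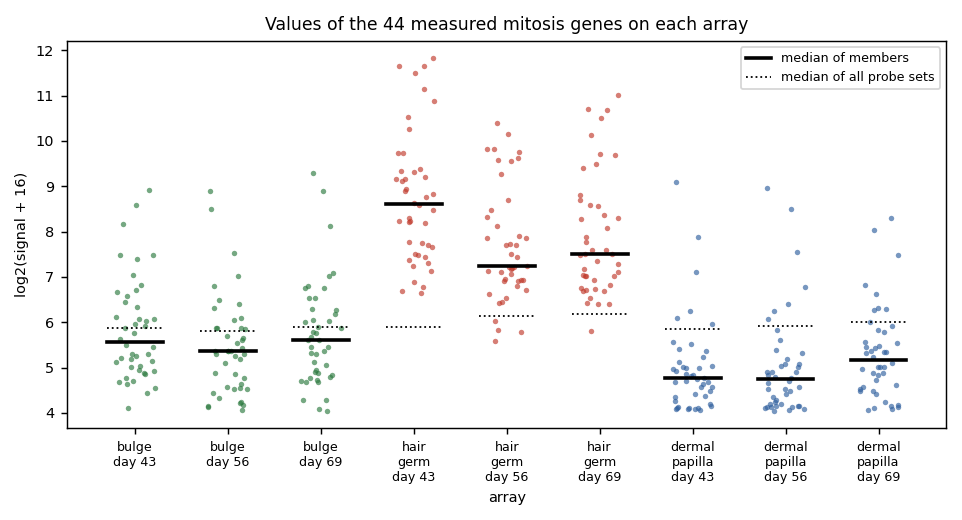
Values of the 44 measured mitosis genes (points) on each array, in log2(signal + 16), with the median of the members (solid line) and of all probe sets of that array (dotted line). The member medians in hair germ (7.23 to 8.61) lie above the dotted line, and those in bulge (5.36 to 5.61) and dermal papilla (4.74 to 5.17) lie below it.

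All 4 measured genes of the cyclin and kinase engine were called higher in hair germ than in bulge, with a median difference of 2.46. Cks2, a small subunit that binds the mitotic kinase, read 11.14, 9.57 and 9.71 in hair germ at the 3 ages in order, 7.49, 7.03 and 6.80 in bulge, and 5.96, 6.41 and 6.31 in dermal papilla. Ccnb2, a mitotic cyclin, read 9.21, 7.71 and 7.11 in hair germ, 5.46, 5.38 and 5.79 in bulge, and 4.67, 4.12 and 5.36 in dermal papilla. The 3 hair germ arrays were the highest for both genes, and the Ccnb2 values in hair germ were spread over 2.10, the most of this group. The hair germ minus bulge difference was 3.03 for Cks2 (SE 0.34, limma adjusted p = 0.000408) and 2.46 for Ccnb2 (SE 0.47, limma adjusted p = 0.00819). Cdk1, the kinase itself, read 8.76, 7.86 and 7.76 in hair germ, 5.63, 5.36 and 6.02 in bulge, and 4.09, 4.19 and 5.56 in dermal papilla. Its difference was also 2.46 (SE 0.41, limma adjusted p = 0.00374). Ccna2, the cyclin of S phase and early mitosis, had the smallest difference of the 4, 2.42 (SE 0.29, limma adjusted p = 0.000552), and read 7.86 to 8.84 in hair germ against 5.62 to 5.97 in bulge.

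Of the 5 mitotic kinases, 4 were called higher in hair germ than in bulge. Melk, a kinase of the AMPK-related family that peaks in dividing cells, read 8.64, 6.93 and 7.50 in hair germ, 5.02, 4.23 and 4.87 in bulge, and 4.09, 4.09 and 4.53 in dermal papilla. Its difference of 2.98 was the largest of the group (SE 0.35, limma adjusted p = 0.000539). Plk1, which acts on centrosomes and kinetochores, read 7.49, 6.80 and 7.02 in hair germ, 4.64, 4.43 and 4.72 in bulge, and 5.22, 4.49 and 5.22 in dermal papilla. The groups did not overlap for either gene, and the Plk1 difference was 2.51 (SE 0.27, limma adjusted p = 0.000369). Nek2, which separates centrosomes, read 6.64, 6.03 and 5.81 in hair germ, 5.30, 5.26 and 5.31 in bulge, and 4.13, 5.04 and 4.84 in dermal papilla. It was the 1 member without a call, with a difference of 0.87 (SE 0.33, limma adjusted p = 0.131), although its hair germ values lay above all others. Its probe set was above the array median on 1 array of 9.

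The 3 measured members of the chromosomal passenger complex, which corrects faulty attachments, were all called higher in hair germ. Incenp, its scaffold, read 11.65, 10.40 and 10.50 in hair germ, 8.59, 8.51 and 8.13 in bulge, and 9.09, 8.95 and 8.29 in dermal papilla. The hair germ minus bulge difference was 2.44 (SE 0.24, limma adjusted p = 0.000227). Aurkb, its kinase, read 7.25, 6.42 and 7.02 in hair germ against 4.55 to 5.13 in bulge and 4.47 to 4.71 in dermal papilla. Birc5 (survivin) was the member of this complex with the smallest difference, 1.77 (SE 0.30, limma adjusted p = 0.00446). It read 6.69, 7.25 and 6.43 in hair germ, 4.86, 4.89 and 5.31 in bulge, and 4.11, 4.83 and 4.09 in dermal papilla, and was the 1 member with its highest hair germ value on day 56.

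The spindle checkpoint genes, 4 of 4, were called higher in hair germ than in bulge, with a median difference of 2.58. Bub1b (BubR1), part of the inhibitor of the anaphase-promoting complex, read 8.19, 7.07 and 7.29 in hair germ, 4.44, 4.17 and 4.69 in bulge, and 4.10, 4.13 and 4.24 in dermal papilla. Its difference was 3.08, an 8.48-fold step on this scale (SE 0.31, limma adjusted p = 0.00023). Mad2l1, the inhibitor's other key part, read 9.17, 7.91 and 8.31 in hair germ, 6.58, 5.65 and 6.26 in bulge, and 6.10, 6.79 and 6.82 in dermal papilla. Here dermal papilla was above bulge on days 56 and 69 and below it on day 43. Ttk (Mps1), the kinase that starts the checkpoint, read 7.44, 7.20 and 7.50 in hair germ, the narrowest spread over days of all members, against 4.28 to 4.71 in bulge. Bub1 had the smallest difference of the 4, 2.29 (SE 0.27, limma adjusted p = 0.000517), from 6.90, 5.79 and 6.40 in hair germ and 4.05 to 4.11 in bulge.

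The 4 genes of ubiquitin-dependent entry and exit were all called higher in hair germ. Cdc20, which activates the anaphase-promoting complex, read 11.50, 9.28 and 10.69 in hair germ, 7.49, 6.48 and 7.08 in bulge, and 5.51, 5.60 and 6.62 in dermal papilla. Its difference was 3.47, or 11.1-fold (SE 0.38, limma adjusted p = 0.000377). Ube2c, the ubiquitin-conjugating enzyme of that complex, read 8.22, 7.44 and 7.01 in hair germ, 5.19, 4.14 and 5.12 in bulge, and 4.93, 4.66 and 5.01 in dermal papilla. Bulge and dermal papilla overlapped for this gene, and both lay below every hair germ array. Pttg1 (securin), the inhibitor of separase, read 11.82, 9.81 and 11.01 in hair germ, 8.17, 7.52 and 8.90 in bulge, and 7.88, 8.51 and 8.04 in dermal papilla. The smallest difference of the group was that of Cdca3, which promotes mitotic entry, at 1.88 (SE 0.33, limma adjusted p = 0.00535).

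Among centromere and kinetochore genes, 4 of 4 were called higher in hair germ than in bulge. Cenpf, a large kinetochore protein of G2 and M, read 9.72, 8.48 and 7.04 in hair germ, 5.77, 5.30 and 5.69 in bulge, and 4.78, 4.30 and 5.01 in dermal papilla. Its values in hair germ were spread over 2.68, the widest of all 44, and its difference was 2.83 (SE 0.49, limma adjusted p = 0.00487). The other probe set of Cenpf, above the array median on 1 array, read 5.67, 5.25 and 6.30 in hair germ. In a fit over all probe sets it was not called against bulge (0.53, limma adjusted p = 0.318). Cenpa, the centromeric histone H3, read 8.89, 7.12 and 7.17 in hair germ, 5.91, 5.43 and 5.87 in bulge, and 5.56, 6.07 and 5.33 in dermal papilla. Ndc80, which binds the kinetochore to microtubules, read 6.77, 5.58 and 6.69 in hair germ, 4.56, 4.53 and 4.30 in bulge, and 4.48, 4.07 and 4.41 in dermal papilla. Its difference of 1.89 was the smallest of the group (SE 0.29, limma adjusted p = 0.00233). Cenpe, a kinetochore motor, differed by 2.44 (SE 0.30, limma adjusted p = 0.000759).

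All 9 spindle motors and microtubule-binding proteins were called higher in hair germ, with a median difference of 2.24. Kif2c (MCAK), which takes microtubule ends apart, read 9.34, 7.21 and 8.59 in hair germ, 4.93, 5.20 and 5.46 in bulge, and 4.06, 4.15 and 4.58 in dermal papilla. Its difference of 3.18 was the largest of the 9 (SE 0.43, limma adjusted p = 0.00118). Kif11 (Eg5), the motor that pushes spindle poles apart, read 7.38, 6.44 and 6.54 in hair germ, 4.88, 4.52 and 4.84 in bulge, and 4.58, 4.16 and 4.18 in dermal papilla. Kif4, a chromosome-arm motor, had the smallest difference, 1.77 (SE 0.33, limma adjusted p = 0.00683), from 7.31, 7.17 and 6.70 in hair germ and 5.50, 5.69 and 4.68 in bulge. The differences of Hmmr, Spag5, Nusap1, Tpx2 and Tacc3, which bundle or anchor spindle microtubules, lay from 2.17 for Tacc3 to 2.79 for Hmmr. Kif22, a chromosome-arm motor, differed by 2.80 (SE 0.26, limma adjusted p = 0.000166).

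All 5 cytokinesis genes were called higher in hair germ than in bulge. Anln (anillin), the scaffold of the contractile ring, read 10.89, 9.62 and 9.41 in hair germ, 6.72, 5.87 and 6.53 in bulge, and 4.10, 4.42 and 4.96 in dermal papilla. Its difference was 3.60, or 12.1-fold (SE 0.39, limma adjusted p = 0.000327), and the 3 populations did not overlap. Ect2, which activates RhoA at the cleavage site, read 9.12, 8.70 and 8.80 in hair germ, 6.12, 6.06 and 5.61 in bulge, and 5.01, 5.08 and 4.07 in dermal papilla. Its difference was 2.95 (SE 0.28, limma adjusted p = 0.000195). Racgap1, a subunit of centralspindlin, had the smallest difference, 2.11 (SE 0.28, limma adjusted p = 0.00114), from 7.66, 6.72 and 6.74 in hair germ and 5.14, 4.77 and 4.89 in bulge. Prc1, which bundles the midzone microtubules, differed by 2.36 (SE 0.30, limma adjusted p = 0.000889), and Kif20a, a midzone motor, by 2.38 (SE 0.30, limma adjusted p = 0.00088).

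The 6 genes of mitotic chromosome structure held the largest difference of all members and the smallest that was called. Mki67 (Ki-67), which coats mitotic chromosomes and is used to mark cycling cells, read 11.66, 10.16 and 10.70 in hair germ, 7.05, 6.40 and 6.75 in bulge, and 4.43, 4.54 and 5.83 in dermal papilla. Its hair germ minus bulge difference was 4.11, or 17.3-fold (SE 0.38, limma adjusted p = 0.000164), and was 4.61, 3.76 and 3.95 on days 43, 56 and 69. Top2a, the enzyme that untangles sister DNA, read 10.53, 9.55 and 9.50 in hair germ, 6.66, 5.88 and 6.54 in bulge, and 4.84, 5.20 and 5.79 in dermal papilla. For both genes the order was hair germ, bulge, dermal papilla, with no overlap between any pair. Smc4, a core subunit of both condensins, read 10.27, 9.83 and 9.70 in hair germ, 8.93, 8.90 and 9.29 in bulge, and 7.12, 7.56 and 7.48 in dermal papilla. Its difference was 0.89 (SE 0.23, limma adjusted p = 0.0323). Smc2, the partner of Smc4, read 9.38, 7.13 and 8.57 in hair germ, 6.82, 6.08 and 6.30 in bulge, and 6.26, 6.25 and 6.27 in dermal papilla. Its difference was 1.96 (SE 0.37, limma adjusted p = 0.00764). Ncapd2 and Ncaph, subunits of condensin I, differed by 1.67 and 2.07.

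The hair germ minus bulge median of the members was 2.87, 2.27 and 2.08 on days 43, 56 and 69. On those days 44, 42 and 42 members differed at least 2-fold, against 7.79%, 9.26% and 14.0% of all genes. No member changed sign under any of the alternatives run, and 30 of the 43 calls held under all of them. Without the 3 arrays whose GAPDH ratio was above 6, hair germ rests on day 56 alone, whose spread is then assumed to be that of the other arrays. The count was 33 of 44 in that fit, and the calls of Cdk1, Pbk, Pttg1, Cdca3, Cenpa, Kif4, Nusap1, Smc2, Smc4 and Ncaph ended there. The call of Smc4 also ended under quantile normalization (limma adjusted p = 0.0575) and median centring (limma adjusted p = 0.116). It ended as well without any 1 of the bulge arrays, without the day 43 or the day 56 hair germ array, and with no mean-variance trend (limma adjusted p from 0.0515 to 0.165). The calls of Ccnb2 (limma adjusted p = 0.0613) and Cenpa (limma adjusted p = 0.0789) ended without the day 43 bulge array. That of Cenpa also ended without the day 56 bulge array (limma adjusted p = 0.0652), and that of Kif4 without the day 69 bulge array (limma adjusted p = 0.0503). With a pseudocount of 1 the brightest probe set became another one for Bub1, Kif11 and Spag5, and Bub1 and Kif11 were not called on it (limma adjusted p = 0.245 and 0.137). With the probe sets held, an alternative chosen after seeing the data, both were called at that pseudocount (limma adjusted p = 0.000937 and 0.00537).

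Scaling moved both the members and the background. The median of all genes in this comparison was 0.13 as deposited, -0.01 after quantile normalization and -0.08 after median centring. The member medians were 2.43, 2.23 and 2.22. Among all genes, 915 were called higher and 501 lower as deposited, 652 and 713 after quantile normalization, and 613 and 848 after median centring.

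Other cells in the sorts were read from marker lists. Of 8 measured genes of epidermal differentiation, 4 were called higher and 1 lower in hair germ than in bulge. Their summed signal was 15551, 14791 and 35053 in hair germ in order of age, 4960 to 7840 in bulge and 330.0 to 758 in dermal papilla. Ivl lay above the array median on no hair germ array, and 5 of the 8 did on all 3. Of 7 melanocyte genes, 4 were called higher and 1 lower, and all 7 lay above the median on at least 1 hair germ array. Their sum was 2680, 5055 and 2261 in hair germ, 2302 to 3011 in bulge and 405 to 722 in dermal papilla. Leukocyte genes summed to 280 to 580 in hair germ, 577 to 805 in bulge and 124 to 635 in dermal papilla, with 5 of 9 above the median on no hair germ array. None of 7 endothelial genes lay above the median on any bulge or hair germ array. Muscle and pericyte genes summed to 249.1 to 335 in hair germ and 79.1 to 122 in bulge, with no overlap, and 2 of 7 (Acta2 and Itga7) were called higher in hair germ, while 5 lay above the median on no hair germ array. Dermal papilla genes summed to 252 to 725 in hair germ and 203 to 245 in bulge, and 1 of 10 was called higher. Dermal fibroblast genes summed to 574 to 1159 in hair germ and 318 to 1402 in bulge, and 1 of 8 was called higher. What part any of these cells have in the member values was not tested.

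Against dermal papilla, all 44 members were called higher in hair germ, each at least 2-fold, with a median of 2.72. The same call was made for 15.6% of all genes, and 10.0% were called lower. These background shares were 1933 higher and 1241 lower genes as deposited, 1560 and 1603 after quantile normalization, and 1540 and 1582 after median centring. Mki67 had the largest difference, 5.91, or 60.1-fold on this scale (SE 0.38, limma adjusted p = 1.85e-06). Anln followed at 5.48 (SE 0.39, limma adjusted p = 3.55e-06), and Top2a and Cdc20 both at 4.58. Ect2, Kif2c and Kif22 differed by 4.15, 4.12 and 4.02. Nek2 had the smallest, 1.49 (SE 0.33, limma adjusted p = 0.00768), then Aurka, the spindle-pole kinase, with 1.82 (SE 0.31, limma adjusted p = 0.00156). This comparison and the one with bulge share the hair germ arrays.

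**Figure D3:**
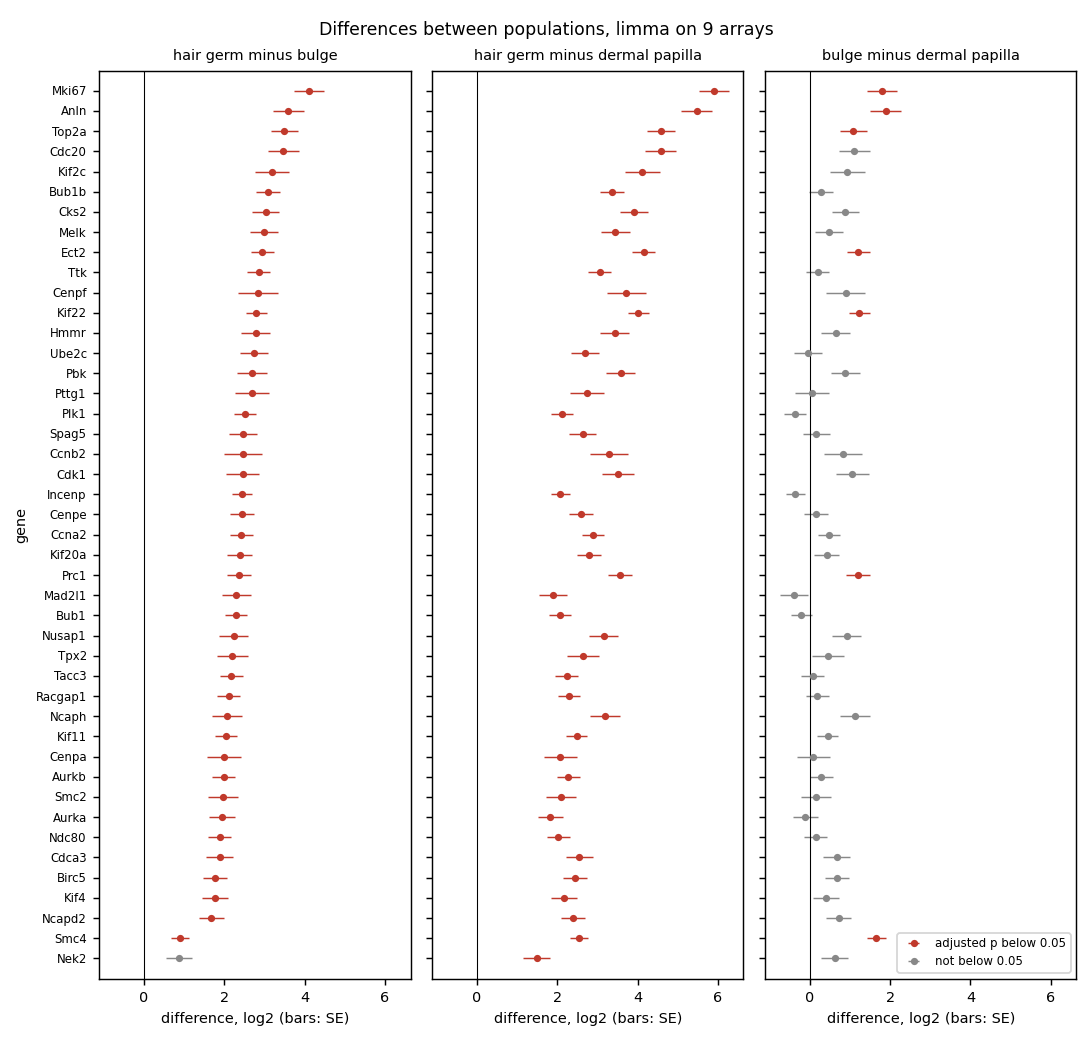
Differences between populations in log2(signal + 16) for each measured mitosis gene, ordered by hair germ minus bulge (points), with the SE from limma (bars). Red points have an adjusted p below 0.05. In the left and middle panels all points lie right of 0, from 0.87 to 4.11 and from 1.49 to 5.91, and in the right panel they lie from -0.40 to 1.88 with 7 in red.

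For the members, bulge and dermal papilla differed less than either did from hair germ. Of 44 members, 7 (15.9%) were called higher in bulge and none lower, close to the 11.3% of all genes called higher in bulge (10.8% were called lower). The median of the members was 0.47, and 38 were above 0 and 6 below. That median was 1.08 with a pseudocount of 1 and 0.21 with 64. The called members were Anln with 1.88 (SE 0.39, limma adjusted p = 0.0048), Mki67 with 1.80 (SE 0.38, limma adjusted p = 0.0056), Smc4 with 1.65 (SE 0.23, limma adjusted p = 0.000386), Kif22 with 1.23, Ect2 with 1.21, Prc1 with 1.20 and Top2a with 1.08. By role these were 3 of 5 cytokinesis genes, 3 of 6 of chromosome structure and 1 of 9 of the spindle, and none in the other 6 roles. Ncaph, Cdc20 and Cdk1 differed by 1.12, 1.11 and 1.06 without a call (limma adjusted p = 0.0586, 0.0642 and 0.0985). All 3 bulge arrays lay above all 3 dermal papilla arrays for 19 of 44 members (43.2%), against 21.1% of all genes. The 6 members below 0 were Mad2l1, Plk1, Incenp, Bub1, Aurka and Ube2c, from -0.40 to -0.05.

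The count of 7 depended on the settings. It was 13 with a pseudocount of 1, 3 with 64, 4 without the day 56 bulge array and 11 without the day 69 dermal papilla array. Mki67 and Smc4 were called under every alternative run, and Anln, Ect2, Kif22, Prc1 and Top2a lost the call under at least 1. On day 69 dermal papilla had its highest value of the 3 days for 27 of 44 members, against 36% of all genes. Mki67 then read 5.83 against 4.43 and 4.54 before.

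Within hair germ the members were highest on day 43. This held for 41 of 44, against 21.4% of all genes. The lowest value fell on day 56 for 28, against 30.0% of all genes, and on day 69 for 15, against 25.2%. The exceptions were Birc5, highest on day 56, and Kif22 and Ttk, highest on day 69. There was 1 array per population and day, so these differences have no test. A gene was counted as 2-fold apart where the higher of the 2 arrays also lay above its own median. On day 56, 23 of 44 members (52.3%) were at least 2-fold below day 43, against 2.20% of all genes, and the median difference was -1.10. On day 69 the count was 11 (25.0%), against 3.26%, with a median of -0.84. Between days 56 and 69, 5 members were at least 2-fold higher on day 69 (11.4%, against 4.60%) and 1 was lower (2.27%, against 4.15%). The day 69 count was 7 with a pseudocount of 64, 17 after quantile normalization and 30 after median centring. The count of 5 was 2 with the mean of a gene's probe sets.

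The members did not all follow one course. The largest steps from day 43 to day 56 were those of Smc2 (-2.25), Cdc20 (-2.22), Kif2c (-2.14), Pttg1 (-2.01) and Spag5 (-1.93). Of these Smc2, Cdc20, Kif2c and Pttg1 were 1.20 to 1.44 higher again on day 69, by their brightest probe sets. Further probe sets of Cdc20 read 7.59 and then 7.97, and 4.91 and then 5.01, on days 56 and 69. Those of Kif2c read 4.75 and then 4.79, 5.90 and then 5.73, and 4.88 and then 5.42. Those of Pttg1 read 6.32 and then 7.23, and 6.27 and then 7.04. Cenpf, Ccnb2, Anln and Tpx2 were lowest on day 69, at -2.68, -2.10, -1.48 and -1.47 from day 43. The other probe sets of Cenpf (5.67, 5.25 and 6.30) and Tpx2 (7.10, 5.58 and 6.59) were lowest on day 56. The narrowest ranges over the 3 days were those of Ttk (0.30), Kif22 (0.40) and Ect2 (0.42). By role, the day 56 median was -1.63 for ubiquitin-dependent entry and exit and -1.22 for the kinetochore, where all 4 genes were at least 2-fold lower. It was -0.69 for the mitotic kinases.

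Other values also moved with the days in hair germ. Day 56 stood apart in the GAPDH ratio (8.34, 2.97 and 7.90) and in the summed signals of melanocyte genes (2680, 5055 and 2261), dermal papilla genes (252, 725 and 329.8) and hair germ and lower follicle genes (913, 1961 and 973). Leukocyte sums were 280, 418 and 580, endothelial sums 62.8, 153 and 163, and muscle and pericyte sums 249.1, 328 and 335, all lowest on day 43. Keratinocyte sums (37849, 33292 and 54511) and the epidermal differentiation sums were highest on day 69. Bulge stem cell sums were 13991, 10873 and 11789, and fibroblast sums 1156, 1159 and 574. The part of any of these in the day differences was not tested.

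**Figure D4:**
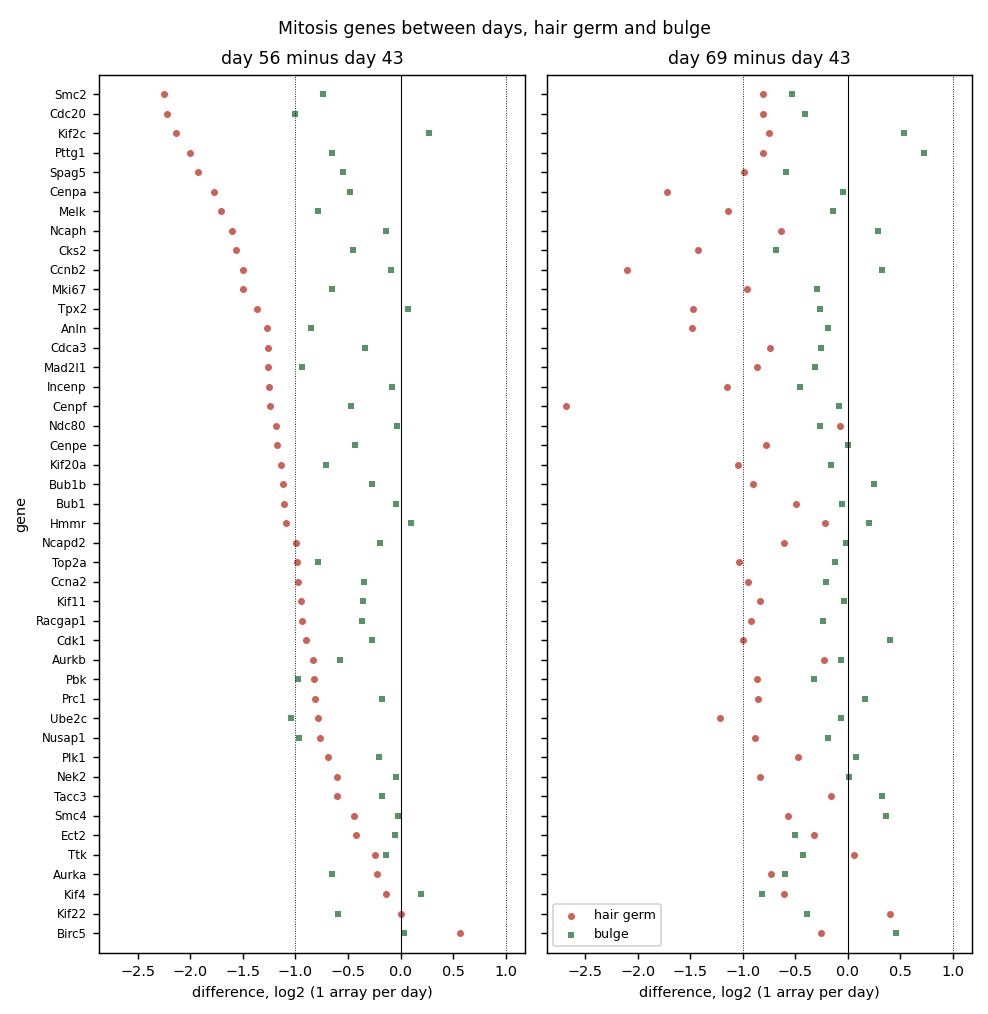
Difference from day 43 in log2(signal + 16) for each measured mitosis gene in hair germ (red circles) and bulge (green squares), on day 56 (left) and day 69 (right), 1 array per point and day. Dotted lines mark 2-fold. Most hair germ points lie left of 0, with medians of -1.10 and -0.84, and bulge points lie nearer 0, with medians of -0.35 and -0.13.

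In bulge the members were highest on day 43 in 28 of 44, against 28.7% of all genes. They were lowest on day 56 in 32 of 44, against 36.4% of all genes, with smaller steps than in hair germ. The day 56 median was -0.35, and 1 member, Cdc20, was counted as at least 2-fold lower (2.27%, against 0.234% of all genes). Its further probe sets moved less in bulge, from 6.21 to 5.585 and from 4.18 to 4.07. Ube2c moved by -1.05 but lay below the array median on both days. On day 69 the median was -0.13 and no member passed 2-fold, as 0.992% of all genes did upwards and 0.767% downwards. In dermal papilla the medians were 0.08 on day 56 and 0.37 on day 69, and on day 69 Cdc20 was counted as at least 2-fold higher than on day 43, at 1.11 (2.27%, against 4.34% of all genes). Cdk1 and Mki67 differed by 1.47 and 1.41 between the same arrays, below the array median on both. The further probe sets of Cdc20 read 5.21 and then 5.79, and 4.09 and then 4.11, on these 2 dermal papilla arrays. In the fit with a day term common to the populations, limma called 0 of 12393 genes for either day, 0% in both. At an unadjusted p below 0.05 there were 847 genes, 1 of them a member, for day 69 and 569, 6 of them members, for day 56.

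Further probe sets of the members gave mixed readings. The 44 members had 79 probe sets, and 22 members had more than 1. In a fit over all 22626 probe sets, 18 of the 35 further probe sets were called higher in hair germ than in bulge and none lower, against 6.11% of all probe sets. Of the other 17, 10 lay above the array median on no array and 7 on at least 1. The further probe sets of Kif2c gave 1.12, 0.75 and 0.09, none called. Those of Kif22 gave 1.35 and 2.58, both called, but 0.09 and 0.16 for bulge minus dermal papilla, where the brightest gave 1.23. In that comparison the other probe sets of Prc1 and Top2a gave 0.51 and 0.06, neither called. The further ones of Smc4 gave 1.65, called, and 0.91, not called. The brightest probe set of Kif22 is of a type (x_at) whose probes can bind other transcripts, as are those of 6 other members, Aurkb, Incenp, Cdc20, Kif2c, Tacc3 and Ncaph. With the mean of a gene's probe sets, Kif22 was not called for bulge minus dermal papilla (0.49, limma adjusted p = 0.275), nor Cdca3 for hair germ minus bulge (0.46, limma adjusted p = 0.202).

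Other genes of the mitotic machinery were taken from lists chosen by function, with earlier results of these data known. Of 29 measured further genes that are periodic in mitosis, 23 were called higher in hair germ than in bulge and none lower, with a median of 1.63. Shcbp1, which acts at the midbody, differed by 3.38, Aspm, a spindle-pole protein, by 2.86, Cdca5 (sororin), which protects sister cohesion, by 2.78 and Kif23, the centralspindlin motor, by 2.76. In hair germ 28 of the 29 were lower on day 56 than on day 43, against 5084 of all 12393 genes, with a median of -0.82. Cdc25b, a phosphatase that activates cyclin-dependent kinase 1, was named after its values were seen. It read 8.29, 7.70 and 6.81 in hair germ, 8.41, 8.64 and 7.87 in bulge, and 5.50, 5.17 and 5.33 in dermal papilla. Hair germ and bulge overlapped for it (-0.70, SE 0.30, limma adjusted p = 0.169), and it was called higher in bulge than in dermal papilla by 2.97 (SE 0.30, limma adjusted p = 3.78e-05).

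Of 10 measured genes for G2/M transcription factors and DREAM subunits, which act on CHR promoters, 3 were called higher in hair germ than in bulge and none lower, with a median of 0.21. The share of all genes called higher was 7.38%, and whether this list differed from the members was not tested. These were Rbl1 (p107) with 1.29 (SE 0.31, limma adjusted p = 0.0233), Tfdp1 with 0.90 (SE 0.20, limma adjusted p = 0.0169) and Mybl2 (B-Myb) with 0.86 (SE 0.23, limma adjusted p = 0.0371). Mybl2 lay above the array median on none of the 9 arrays. Foxm1, the activator of late cell cycle genes, was also named after its values were seen. It read 5.92, 6.75 and 6.62 in hair germ, 6.33, 6.66 and 6.23 in bulge, and 4.48, 5.42 and 4.29 in dermal papilla. The hair germ and bulge values overlapped, with a difference of 0.02 (SE 0.31, limma adjusted p = 0.976) that was -0.15 after quantile normalization and -0.19 after median centring. Against dermal papilla, Foxm1 was called higher in hair germ by 1.70 and in bulge by 1.68 (SE 0.31 for both, limma adjusted p = 0.00202 and 0.0023).

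Lists of other parts of the machinery had medians from -0.07 to 0.26, against 0.13 for all genes. Of all genes, 7.38% were called higher and 4.04% lower. Whether these small lists differed from all genes was not tested. Of 12 core genes of the anaphase-promoting complex, none was called higher in hair germ than in bulge and 1, Anapc7, lower (-0.68, SE 0.18, limma adjusted p = 0.0355). Their median was 0.07. Of 8 cohesin genes 1 was called higher, Pds5a, with 0.94 (SE 0.19, limma adjusted p = 0.0105). Of 7 genes for condensin II and for the phosphatases of mitotic exit and their regulators, Ppp2r2a was called higher (0.67, SE 0.18, limma adjusted p = 0.0385). Ensa was called lower (-0.80, SE 0.21, limma adjusted p = 0.0352). Both motifs lay in 19 of 41 promoter windows of the other periodic genes (46.3%) and in 0 of 14 of the anaphase-promoting complex.

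**Figure D5:**
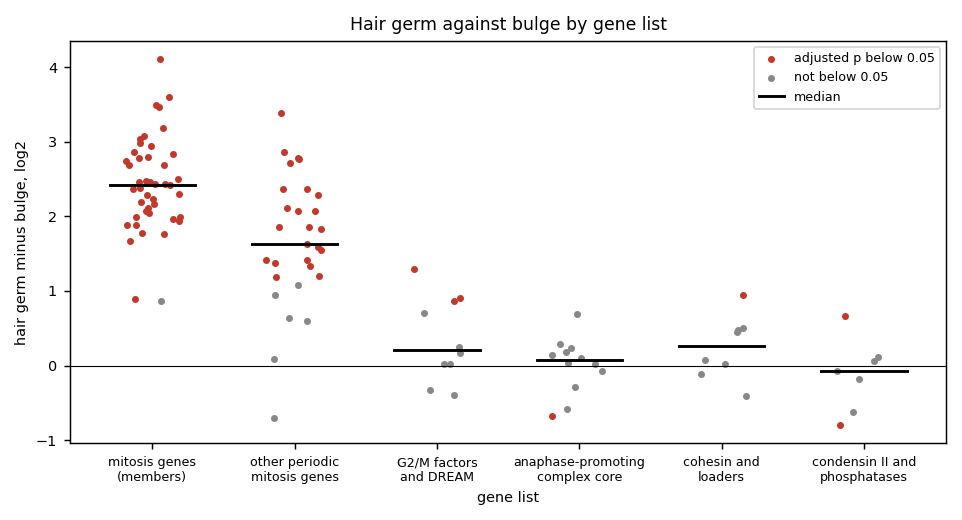
Hair germ minus bulge in log2(signal + 16) for each measured gene of 6 lists (points), with the list's median (line). Red points have a limma adjusted p below 0.05. The medians are 2.43 for the mitosis genes, 1.63 for the other periodic genes and 0.21 or less in 3 of the other lists, with 0.26 for cohesin.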

How the data were processed

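RNA of each sorted population was amplified, labelled and hybridised to 1 Affymetrix array per population and day. The authors deposited MAS5 signal intensity values, made with the GCOS software per the submitters' processing notes. Software versions and the scaling target are not given in the sources used here. Of 22690 probe sets, 64 controls were left out, and 20380 were annotated to 1 gene symbol, 691 to several and 1555 to none. The brightest of a gene's probe sets by mean stood for it, which gave 12393 genes.

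Values were taken as log2(signal + 16) with no further normalization and no filter on low values. limma 3.58.1 in R 4.3.3 (lmFit, eBayes with trend) was fitted to all genes and all 9 arrays with population and day as terms, leaving 4 residual degrees of freedom. Tests were two-sided, with Benjamini-Hochberg adjustment over all genes and a threshold of 0.05. The procedure was tested on simulated data with noise independent between genes and arrays, without effects of day or RNA quality. The number of arrays limits the precision.

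Every member could be named. In each role up to 4 were given by array, beginning with the largest and smallest hair germ minus bulge difference and the widest range over days in hair germ. Of the other pathway lists, up to 4 called genes with the largest differences were named. The members and lists were chosen with earlier results of these data known. Same-day arrays of different populations were matched through the day term of the fit. Their deviations from the population means had correlations from -0.077 to 0.140. Alternatives covered the pseudocount, scaling, filter, probe set rule, day term, trend, single arrays and arrays with a high GAPDH ratio, and, added after seeing the data, scaling with probe sets held.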

Additional observations from a re-analysis of the deposited data

Results flagged for a closer look

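The median over the members had a different sign between days in different populations. From day 43 to day 56 their median difference was -1.10 in hair germ and -0.35 in bulge but 0.079 in dermal papilla. From day 43 to day 69 it was -0.84 in hair germ and -0.13 in bulge but 0.37 in dermal papilla. With 1 array per population and day, the difference between populations was not tested. In dermal papilla 17 of 44 members were lower on day 56 than on day 43, against 6037 of all 12393 genes. No member was counted as 2-fold apart, while 404 of all genes were counted as higher and 225 as lower. Of the members, 35 of 44 lay above the array median on no dermal papilla array.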

How the results depend on the processing

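Members called higher in hair germ than in bulge numbered 40 to 43 when 1 array was left out and 33 to 43 under the other alternatives, and those against dermal papilla 44 and 40 to 44. For bulge minus dermal papilla the count of 7 was 13 with a pseudocount of 1 and 3 with 64, and 4 to 11 when 1 array was left out. Holding the probe sets (which changed for 3 members at a pseudocount of 1), an alternative chosen after seeing the data, gave the same counts of 13 and 3. All genes called between hair germ and bulge numbered 1416, 655 to 1471 when 1 array was left out and 805 without the arrays with a high GAPDH ratio. The hair germ count for day 69 against day 43 was 7 with a pseudocount of 64, 17 after quantile normalization and 30 after median centring, and the count of 5 higher on day 69 than on day 56 was 2 with the mean of a gene's probe sets. The Foxm1 difference between hair germ and bulge turned negative after quantile normalization (-0.15) and median centring (-0.19), and ranged from -0.23 to 0.20 when 1 array was left out, below 0 without the day 56 bulge (-0.11), day 69 bulge (-0.0040) or day 69 hair germ array. The cause of these changes was not tested. Without the day term (no replicate block) the member counts stayed at 43, 44 and 7. Same-numbered arrays share a day and were matched through the day term of the main fit. Their deviations correlated from -0.077 to 0.140, against -0.200 to 0.185 for different days. These ranges overlap, and whether arrays of one day were more alike was not tested. With 1 array per population and day, differences between days within a population have no test.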
